A study of Mus musculus with 12 samples.

Results

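CpG methylation in TKO embryonic stem cells (ESCs), which carry indels in Tet1, Tet2 and Tet3, was compared with that in WT ESCs at the single CpGs that the authors listed as different between these genotypes. Every CpG of the deposited TKO against WT list was taken, which gave 8001 of 27538 entries in the 4 lists of knockout against WT cells. The TKO group had 2 clones and the WT group had 3 clones, by the sample titles. All clones came from a single 129/SVj-derived mouse ESC clone that carries an Oct4:IRES:eGFP reporter, were grown on gelatin without feeders, and were profiled as undifferentiated cells. TKO clones were made by CRISPR, and in each of them a single edited allele was found for Tet3. The genotype field of both TKO samples reads DKO, the name used for cells without Tet1 and Tet2. Among the sample labels, TKO is thus given by the titles alone. The deposited list is also named for TKO against WT, and the study describes 2 TKO clones. The assay was reduced representation bisulfite sequencing (RRBS), which cuts genomic DNA at CCGG with MspI, reads the ends of short fragments and scores each cytosine as converted or protected.

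Each value is the authors' deposited difference between the clones of both genotypes, TKO minus WT, in percentage points of methylation, so that a positive value means higher methylation in TKO cells. A CpG had to have at least 10 reads, a q-value under 0.05 and a difference of at least 25 points to be listed. The list has 1 value per CpG and none per clone. Spread between clones, read depth and methylation levels are therefore not known here, and neither is the number of CpGs that were tested and not listed. Shares are given with exact (Clopper-Pearson) 95% intervals that cover the counting of CpGs or regions alone, since CpGs are not replicates. No test was made of any difference described below. In the text a CpG listed as higher in TKO cells is called gained and one listed as lower is called lost.

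Tet1, Tet2 and Tet3 encode dioxygenases that oxidise 5-methylcytosine to 5-hydroxymethylcytosine and further products, which are lost through replication or are cut out by base excision repair. Methylation is laid down by Dnmt3a and Dnmt3b and kept through cell division by Dnmt1 with Uhrf1. In ESCs most CpG-rich promoters are free of methylation, gene bodies and repeats are largely methylated, and Tet1 and Tet2 are the main Tet enzymes. Bisulfite treatment protects 5-hydroxymethylcytosine as it does 5-methylcytosine, so that RRBS reads their sum.

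The 3 guides that the study used are shown because they place the edits relative to the listed CpGs. Each guide is given 5′ to 3′ in lower case with its NGG motif, read from the mm9 genome (NCBIM37), in capitals. Each of them matched the genome exactly at 1 place with such a motif, in an exon of its target gene.
Tet1 guide, chr10:62296296-62296315, minus strand: ggctgctgtcagggagctcaTGG
Tet2 guide, chr3:133148620-133148639, minus strand: gaaagtgccaacagatatccAGG
Tet3 guide, chr6:83329888-83329907, minus strand: aaggaggggaagagttctcgAGG

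The edited genes themselves were examined first. Tet1 had 2 listed CpGs in an exon at 182 and 197 bp from its transcription start site (TSS), with differences of 44.0 and 44.7 points, and both lay 46 kb from the guide's cut (46282 and 46267 bp). Tet2 had 1 exonic CpG with 41.7 points, 607 bp from the guide's cut and 58125 bp from the TSS. Tet3 was the nearest gene of none. These CpGs lie outside the edited bases, so they do not check the knockout. The stretch around the Tet1 CpGs (chr10:62342535-62342611, plus strand, as all stretches below) has 7 CpGs, of which the 2 listed ones are in capitals.
Tet1: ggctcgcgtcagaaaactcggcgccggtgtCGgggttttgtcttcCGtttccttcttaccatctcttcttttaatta

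Of the 8001 CpGs, 4691 were gained and 3310 were lost in TKO cells, so that 58.6% were higher (95% interval 57.5 to 59.7%). Listed CpGs up to 1000 bp apart were merged into 7012 regions, each with the sign of its mean, and 3992 regions (56.9%, 95% interval 55.8 to 58.1%) were higher. These 2 shares are the background for the shares below that are taken at any distance from a TSS. Within 2000 bp of a TSS the background was higher, with 73.8% of all 1022 listed CpGs gained there. Gains and losses were of like size. The median was 37.0 points at gained CpGs and the median loss was 36.4 points, with 1044 gained (22.3%) and 669 lost CpGs (20.2%) at 50 points or more. The CpGs nearest to the threshold of 25 points were gained near Sall1 (25.0024 points) and Tlk1 (25.0188 points) and lost near Psen2 (-25.0074 points) and Eps8 (-25.0123 points).

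**Figure D1:**
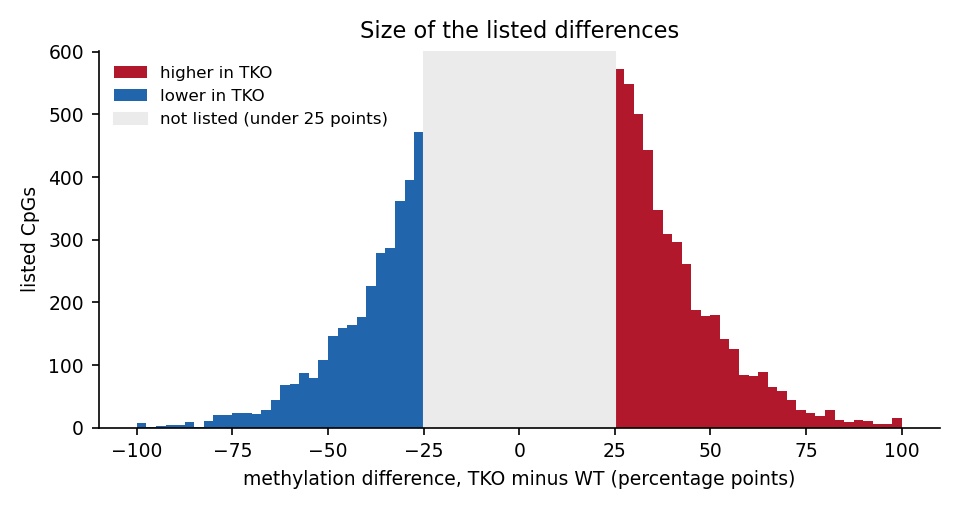
Number of listed CpGs (vertical axis) by methylation difference, TKO minus WT, in percentage points (horizontal axis, bins of 2.5 points). Red bars are the 4691 gained CpGs and blue bars the 3310 lost CpGs, both densest next to the threshold of 25 points, and CpGs in the grey band are not listed.

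At 20 CpGs the difference was 100 points in size, which fixes both levels: 14 were fully methylated in TKO cells and unmethylated in WT cells, and 6 were unmethylated in TKO and fully methylated in WT cells. The gained ones had as nearest genes Tcf4 (2 CpGs), which encodes a basic helix-loop-helix factor, Evx1, a homeobox gene, Ccr4, a chemokine receptor gene, Pknox1, Bik, Gramd4, Rbm4, Tulp2, Usp50, Pramef12, Gm11149, 5330411J11Rik and A730018C14Rik. The lost ones lay near Wnt11, a Wnt ligand gene, Tnnt2, the cardiac troponin T gene, Srgap3, Pnpla1, Ccdc38 and Gm7538. All but Pramef12 (221 bp) and Tulp2 (914 bp) lay over 2000 bp from a TSS. Just below that size, the largest gain was 98.9 points near Hsp90ab1, a chaperone gene, in a B1 repeat, and the largest loss was -98.8 points in an intron of Erc2. The number of reads behind these CpGs is not known beyond the minimum of 10.

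The share of gained CpGs was set against the distance to the nearest TSS, as the list gives it. It was 79.4% of 360 CpGs within 500 bp (95% interval 74.9 to 83.5%), 70.7% of 662 at 500 to 2000 bp, 61.1% of 1728 at 2000 to 10000 bp, 57.9% of 3068 at 10000 to 50000 bp and 53.6% of 1732 at 50000 to 200000 bp. Beyond 200000 bp losses outnumbered gains, with 39.0% of 451 CpGs gained (95% interval 34.5 to 43.7%). Gained CpGs had a median distance of 16174 bp, against 25157 bp for lost CpGs. The window within 2000 bp held 16.1% of the gained and 8.10% of the lost CpGs. Gains at the TSS were not larger, with a median of 34.9 points within 500 bp and 37.0 points over all gained CpGs.

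Upstream and downstream CpGs had like shares next to the TSS (79.2% of 130 upstream and 79.6% of 230 downstream within 500 bp). From 2000 to 10000 bp they differed, with 65.5% of 1056 downstream CpGs gained (95% interval 62.6 to 68.4%) and 54.0% of 672 upstream CpGs (95% interval 50.2 to 57.8%). Without CpGs in repeats the shares fell in the same order with distance, at 79.4, 71.8, 64.8, 61.0, 56.1 and 42.0%. Merging into regions gave 79.2, 69.6, 59.1, 56.1, 52.3 and 37.7%. WT levels are not part of the list, and room to gain at unmethylated CpGs and a change particular to TSSs cannot be told apart from these values.

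Position in the gene was compared next. CpGs in the class promoter-TSS, HOMER's window around the start of a transcript, were gained in 80.4% of 311 (95% interval 75.5 to 84.7%). Exons had 67.5% of 1057 gained and introns 58.1% of 2966. First introns (63.9% of 981, 95% interval 60.8 to 66.9%) had a higher share than middle introns (55.4% of 1698, 95% interval 53.0 to 57.8%). Among exons the share was 72.6% of 117 in first exons (95% interval 63.6 to 80.5%), 66.7% of 750 in middle exons and 68.8% of 359 in last exons. These intervals overlap, which does not show that position made no difference in exons. In 3′ UTRs 70.0% of 130 were gained and in 5′ UTRs 66.0% of 47. Intergenic CpGs, the most frequent class, were gained in 53.3% of 3297 (95% interval 51.5 to 54.98%). CpGs labelled CpG island in the list's detailed annotation were gained in 76.3% of 93. That annotation gives each CpG 1 label, so island CpGs labelled otherwise, as by promoter or exon, are not among them. Of the 22 CpGs with the island label and a difference of 40 points or more, 100% were gained (95% interval 84.6 to 100%).

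Repeats held more of the losses. CpGs in interspersed repeats were gained in 45.9% of 1704 (95% interval 43.5 to 48.3%) and other CpGs in 62.1% of 6297 (95% interval 60.9 to 63.3%). Repeats thus made up 16.7% of the gained and 27.9% of the lost CpGs. Some small families had shares above the 58.6% over all CpGs, with intervals that include it. These were L2, long interspersed repeats (71.0% of 31, 95% interval 52.0 to 85.8%), and MER1-type DNA elements (63.3% of 30, 95% interval 43.9 to 80.1%). Among LTR elements, which derive from retroviruses, the share was 41.0% of 317 at ERVK, 31.8% of 66 at its IAP subgroup, 40.7% of 118 at MaLR and 33.3% of 63 at ERV1. At ERV1 it was 57.1% of 21 among CpGs of 40 points or more, so that the majority turned there.

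L1 elements, the long interspersed repeats with active members in the mouse, were gained in 46.4% of 394 CpGs, and their subfamilies differed. L1Md_F2 had gains at 25 of 78 CpGs (32.1%, 95% interval 21.9 to 43.6%), with a median loss of -43.2 points. L1Md_A, the A type of mouse L1, had gains at 21 of 31 (67.7%, 95% interval 48.6 to 83.3%), with a median gain of 30.1 points. L1Md_T (49.0% of 49) and L1Md_F3 (56% of 25) lay between them. Among short interspersed repeats B3A had 33.3% of 45 gained and ID_B1 67.5% of 40. The subfamilies were compared after their values were seen, over 16 repeat names with at least 20 CpGs. Reads from repeats can align to more than 1 copy, and the part of misplaced reads in these shares was not tested.

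**Figure D2:**
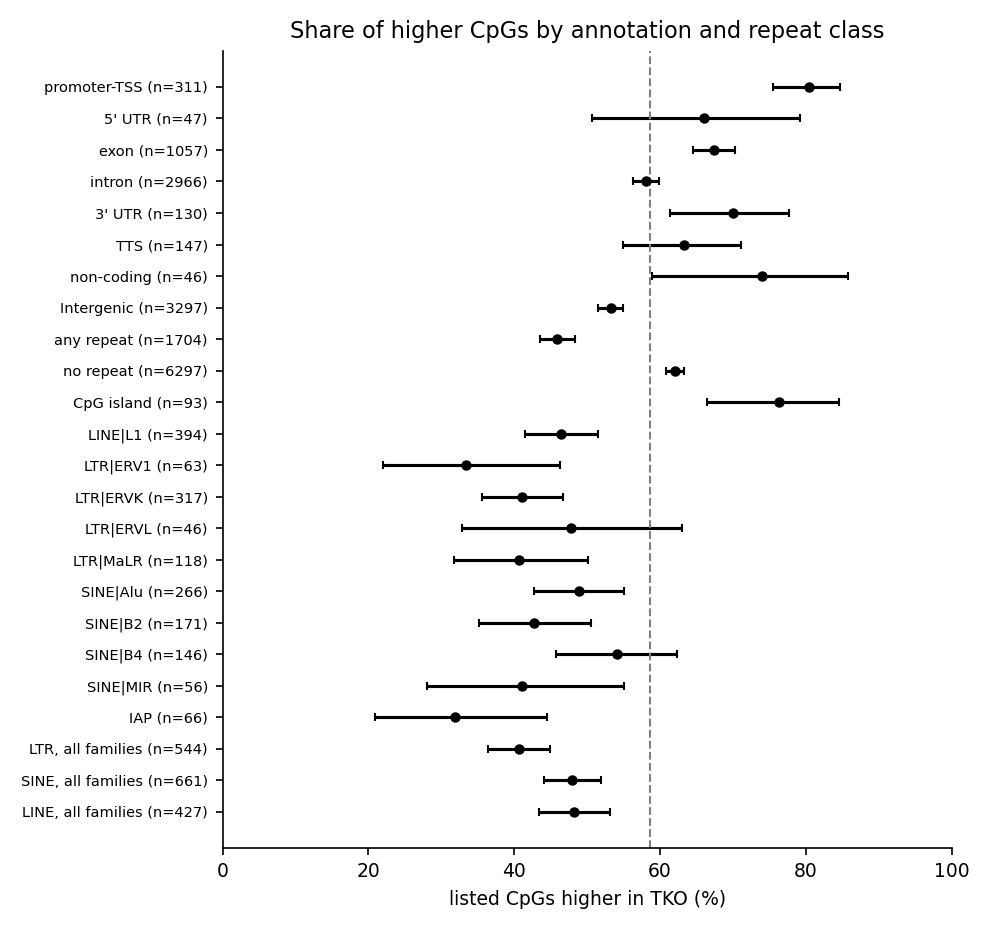
Percent of listed CpGs that were gained in TKO against WT cells (horizontal axis) for each annotation class and the repeat classes with 46 or more CpGs. The number of CpGs is in brackets, the exact 95% interval is a bar and the share over all 8001 CpGs (58.6%) is a dashed line. Promoter-TSS CpGs were gained in 80.4% and every LTR class lay under 50%. IAP is part of ERVK, and the last 3 lines pool all families of a class, also those too small for a line.

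The bases around the CpGs were read from the mm9 genome. All 7993 listed CpGs on assembled chromosomes were forward-strand cytosines of a CpG, and 8 others lay on unplaced contigs. RRBS reaches CpGs near MspI sites, and the median listed CpG lay 21 bp from a CCGG. In a 500 bp window the median ratio of observed to expected CpGs was 0.39 around gained and 0.34 around lost CpGs, with a median GC content of 50.6% around gained and 47.8% around lost CpGs. A virtual MspI digest with fragments of 40 to 300 bp and reads of 38 bases gave 1560849 reachable CpGs, with a median ratio of 0.53 and a GC content of 56.6%. Within 2000 bp of a GENCODE TSS lay 25.4% of gained and 15.1% of lost CpGs, against 42.6% of the reachable CpGs measured to the same TSSs. Listed CpGs in either direction thus lay in less CpG-dense sequence, and farther from TSSs, than the CpGs that the digest reaches. The authors' filter on reads was not applied to the virtual digest. The digest also counted the CpG inside each CCGG, whereas 0% of gained and 0.03% of lost CpGs lay in a CCGG. The authors had clipped bases from the 5′ ends of reads. The part of these unlike sets in the gap between listed and reachable CpGs was not tested.

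The direction of change followed local CpG density. At a ratio of up to 0.2, 46.0% of 515 CpGs were gained, at 0.2 to 0.3 48.9% of 1898, at 0.3 to 0.4 57.6% of 2154, at 0.4 to 0.6 64.3% of 2636 and over 0.6 74.7% of 790 (95% interval 71.5 to 77.7%). Over the same bins, CpGs within 2000 bp of a TSS had shares of 58.6, 57.9, 72.1, 76.5 and 82.7%. CpGs beyond 2000 bp had shares of 45.3, 48.1, 55.9, 62.1 and 71.5%. The rise with density was therefore present beyond 2000 bp of the list's TSSs too. Of the CpGs there, 12.2% of the gained and 8.17% of the lost ones lay within 2000 bp of a GENCODE TSS. The densest bin held 9.88% of the listed CpGs and 42.9% of those the virtual digest reached, with CpGs inside CCGG sites counted in the digest. The bases next to the CpG also differed: CpGs with T before and A after were gained in 44.1% of 490 (95% interval 39.6 to 48.6%), and those with G before and G after in 67.2% of 583 (95% interval 63.3 to 71.0%).

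**Figure D3:**
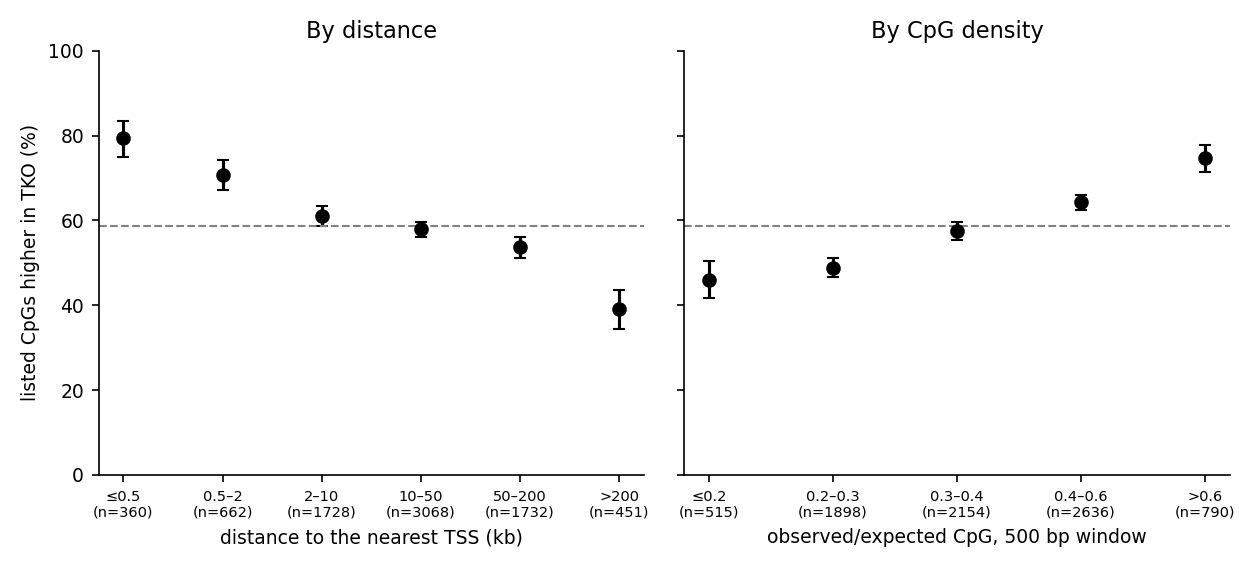
Percent of listed CpGs gained in TKO against WT cells (vertical axis) by distance to the nearest TSS in kb (left) and by the observed to expected CpG ratio in 500 bp (right), with exact 95% intervals as bars, the number of CpGs below each point and the share over all CpGs (58.6%) as a dashed line. The share was 79.4% next to TSSs and 39.0% in the most distant bin, and it was 46.0% in the least and 74.7% in the most CpG-dense windows.

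Neighbouring listed CpGs moved together over short distances. Of pairs up to 10 bp apart, 94.5% of 364 had the same direction, and of pairs 10 to 50 bp apart 93.6% of 342. At 50 to 200 bp it was 70.7% of 167, and at 200 to 1000 bp 70.7% of 116. From 1000 to 10000 bp 57.4% of 474 pairs had the same direction, and beyond 50000 bp 50.8% of 5123. Reads were 38 bases long, so CpGs in the first bins could share reads, and the part of that in the shared direction was not tested.

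**Figure D4:**
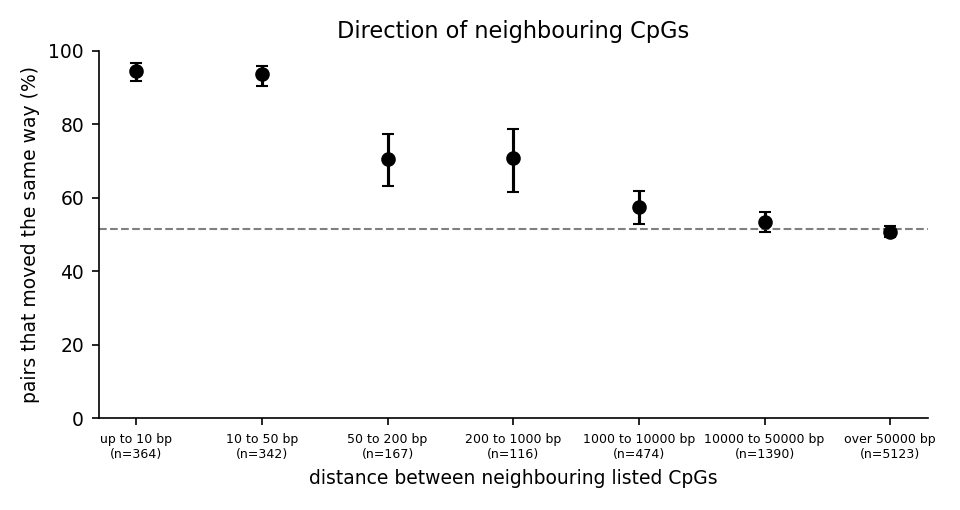
Percent of neighbouring listed CpG pairs with the same direction in TKO against WT cells (vertical axis) by the distance between them in bp (horizontal axis), with exact 95% intervals as bars and the number of pairs below. The dashed line at 51.5% is the share that the overall numbers of gained and lost CpGs would give for unrelated neighbours, and pairs up to 50 bp apart had 94.5 and 93.6%.

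Most regions held a single listed CpG (6174 of 7012). Neighbouring CpGs that were under the thresholds or not measured are missing from the list. Whether the changes in these regions were isolated is therefore not known. Of the 838 regions with 2 or more listed CpGs, 510 had gains alone, 208 losses alone and 120 both. Longer runs were mostly gains: of those with 3 or more CpGs, 89 had gains alone, 14 losses alone and 20 both, and of 21 with 4 or more, 20 had gains alone and 1 had both. The sequences of a few of these runs are shown because they let the listed CpGs, in capitals, be seen among the unlisted ones of the same stretch.

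The longest run had 7 gained CpGs within 85 bp, at -3462 to -3378 bp from the TSS of 4930515B02Rik (chr4:140425116-140425261 with 30 bp on either side). The values along the run were 66.7, 38.6, 31.1, 25.7, 36.8, 44.5 and 45.2 points. The stretch is 65.8% GC with 16 CpGs, and an 11 base unit, ggtgcgagatc, occurs in it 3 times, so reads could be placed on another copy. Another run of 4 CpGs within 24 bp, at chr4:141034997-141035081, had 50.7, 63.4, 76.5 and 55.3 points. The list names Zbtb17, the gene of the transcription factor Miz1, as the nearest TSS, and GENCODE places the stretch in an exon of Spen, which encodes a transcriptional corepressor.
4930515B02Rik: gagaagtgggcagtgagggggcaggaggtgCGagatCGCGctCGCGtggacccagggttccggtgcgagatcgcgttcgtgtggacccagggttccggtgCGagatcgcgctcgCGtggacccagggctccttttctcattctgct
Zbtb17: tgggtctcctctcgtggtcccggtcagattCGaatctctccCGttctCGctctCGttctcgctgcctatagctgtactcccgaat

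Other runs of gains lay near genes with varied roles. Msx1, a homeobox gene of craniofacial and limb development, was the nearest gene to 4 CpGs at -69247 to -69383 bp (chr5:38285041-38285238), with 68.7, 58.0, 42.8 and 47.1 points in a stretch with 16 CpGs and 4 MspI sites. Runs of 4 gained CpGs also lay near Lhx5 (mean 45.1 points, at -22115 bp), a LIM homeobox gene of the forebrain, Uncx (mean 37.1 points, at 36466 bp), a homeobox gene of the somites, and Spry2 (mean 42.2 points, at 81205 bp), an inhibitor of receptor tyrosine kinase signalling. An intron of Mdm2, the gene of the ubiquitin ligase for p53, had 4 with a mean of 47.8 points. An exon of Pard6b, a cell polarity gene, had 5 within 155 bp (chr2:167924067-167924282) with 38.1, 30.4, 50.2, 50 and 48 points. Pitpnc1, a phosphatidylinositol transfer protein gene, had 5 intronic CpGs with 26.3, 81.1, 39.3, 58.0 and 53.8 points, the first of them in a RSINE1 repeat. Klf3, the gene of a Krüppel-like repressor, had 5 (33.2 to 44.1 points) and Slc25a51, a mitochondrial carrier gene, 4 (43.2 to 68.4 points).
Msx1: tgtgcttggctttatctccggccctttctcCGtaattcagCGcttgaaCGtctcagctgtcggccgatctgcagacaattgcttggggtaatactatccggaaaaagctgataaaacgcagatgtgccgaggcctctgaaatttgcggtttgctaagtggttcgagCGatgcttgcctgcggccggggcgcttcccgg
Pard6b: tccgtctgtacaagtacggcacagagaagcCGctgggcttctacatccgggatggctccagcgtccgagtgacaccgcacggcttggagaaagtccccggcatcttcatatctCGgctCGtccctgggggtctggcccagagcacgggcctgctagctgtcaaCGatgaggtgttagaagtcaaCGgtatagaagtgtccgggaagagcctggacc

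Runs of losses were shorter, with at most 3 CpGs. Slc4a2, an anion exchanger gene, had 3 exonic CpGs with -74.7, -44.1 and -44.0 points at 1936 to 1981 bp from the nearer of its TSSs (chr5:23935245-23935351), and 3 intronic ones with 54.5, 38.9 and 27.7 points at 902, 660 and 667 bp. It was the one gene with 2 or more CpGs in each direction within 2000 bp of a TSS. Upstream of Zfand2a, which encodes a zinc finger protein induced by arsenite, 3 CpGs within 10 bp of a 66.2% GC stretch (chr5:139971194-139971264) had -50.01, -54.4 and -50.8 points. Runs of 3 losses also lay near Lrrc8d, a volume-regulated anion channel gene (mean -52.1 points), in an intron of Rbm47, an RNA-binding protein gene (-47.1 points), and near Mphosph6 (-37.2 points). The mean was -58.6 points at 3 CpGs near Mir7226 in MTD and B1_Mus2 repeats.
Slc4a2: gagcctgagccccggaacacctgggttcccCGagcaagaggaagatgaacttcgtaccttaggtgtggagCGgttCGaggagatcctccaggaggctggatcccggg
Zfand2a: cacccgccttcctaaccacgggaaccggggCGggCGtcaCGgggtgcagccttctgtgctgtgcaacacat

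At gene level, listed CpGs lay within 2000 bp of the TSS of 855 genes. Of these 615 had gains alone, 219 losses alone and 21 both. With 3 or more CpGs of a single direction there were 14 gained and 2 lost genes, and with 2 or more 96 gained and 23 lost genes. The values of the genes with the most CpGs follow by what the genes do.

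Of the genes with gains, Snap25, which encodes a membrane fusion protein of synaptic vesicles, had 40.5, 60.6 and 85.5 points at -866, -852 and -845 bp (chr2:136538290-136538372). The last of these leaves the pooled WT value, though not each WT clone, at 14.5% methylation or less. Dbx1, a homeobox gene of spinal interneurons, had 56.5, 54.1 and 43.8 points at -574, -657 and -668 bp (chr7:56892749-56892904). Cntnap1, which encodes an axonal partner of contactin, had 32.3, 40 and 25.8 points at 318 to 328 bp (chr11:101037719-101037790). Adgrl3, a latrophilin adhesion receptor gene, had 28.2, 50 and 47.4 points. Slc17a6, a vesicular glutamate transporter gene, had 1 CpG with 60 points, and Elmod1 had 49.5 and 66.7 points at 488 and 483 bp.
Snap25: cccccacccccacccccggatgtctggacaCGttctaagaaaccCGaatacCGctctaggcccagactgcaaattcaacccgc
Dbx1: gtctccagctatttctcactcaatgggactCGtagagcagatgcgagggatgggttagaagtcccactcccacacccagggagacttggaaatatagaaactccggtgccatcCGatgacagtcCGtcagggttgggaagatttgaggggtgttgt
Cntnap1: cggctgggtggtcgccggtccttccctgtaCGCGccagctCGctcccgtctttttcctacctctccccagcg

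Fzd9, a Wnt receptor gene, had 42.2 and 75.4 points in its coding exon at 1429 and 1404 bp (chr5:135725458-135725544). Wnt5b, a ligand gene, had 44.0 points at -231 bp, and Plxnc1, a semaphorin receptor gene, had 67.5 points at -1424 bp. Mir196a-1, a microRNA gene of the Hoxb cluster, had 65.6 and 51.6 points at -1072 and -1070 bp. Metabolic and enzyme genes were Tpi1, the triosephosphate isomerase gene (34.1, 26.2 and 56.1 points), Fut7, a fucosyltransferase gene (75, 45.9 and 27.5 points), Pkn3, a protein kinase gene (28.8, 33.0 and 53.1 points), and Ddx28, an RNA helicase gene, whose 3 CpGs (35.2, 30.3 and 80.9 points) lay in a B2 repeat. St5, a regulator of small GTPases, had 28.6, 30 and 49.7 points at -39 to -27 bp. Rgsl1 had 28.6, 25.6 and 36.9 points and 9230112D13Rik 35.1 and 87.3 points. Genes with near-identical copies are uncertain: H2-Q6 (30.02 to 78.0 points over 5 CpGs), Wdr20rt (68.2, 68.2 and 53.1 points), Olfr279 (60 and 75.8 points) and the protocadherins described with their list.
Fzd9: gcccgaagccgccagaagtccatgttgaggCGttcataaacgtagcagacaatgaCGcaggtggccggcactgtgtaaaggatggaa

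Of the genes with losses near the TSS, Foxa3, a forkhead factor gene of the liver, had -44.6 and -45.5 points in an intron at 605 and 564 bp (chr7:19608253-19608355). Dazl, a germ cell gene for an RNA-binding protein, had -37.7 and -39.5 points at adjacent CpGs 266 and 264 bp from its TSS (chr17:50432649-50432712). Rasgef1c, an exchange factor gene, had -29.4, -38.9 and -32.1 points at 1004 to 1013 bp (chr11:49716637-49716707). Rab3a, a synaptic vesicle GTPase gene, had -56.1 and -33.6 points, Sema5b, a guidance ligand gene, -33.2 and -56.9 points, and Shank2, a postsynaptic scaffold gene, -27.7, -27.1 and -29.2 points. Atg9a, an autophagy gene, had -46.1 and -47.5 points and Pbp2 -32.9 and -50.9 points. Sparcl1, a matrix glycoprotein gene, had -47.2 and -52.9 points at 28 and 19 bp, and Cyp1a2, a liver cytochrome gene, -65.2 and -30.4 points. The loss of 65.2 points at Cyp1a2 requires a pooled WT value of at least 65.2% methylation.
Foxa3: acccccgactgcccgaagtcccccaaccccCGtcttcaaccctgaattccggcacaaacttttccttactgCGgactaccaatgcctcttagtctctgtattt
Dazl: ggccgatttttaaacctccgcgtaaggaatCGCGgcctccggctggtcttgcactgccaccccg
Rasgef1c: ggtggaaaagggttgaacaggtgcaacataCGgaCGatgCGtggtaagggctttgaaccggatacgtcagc

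**Figure D5:**
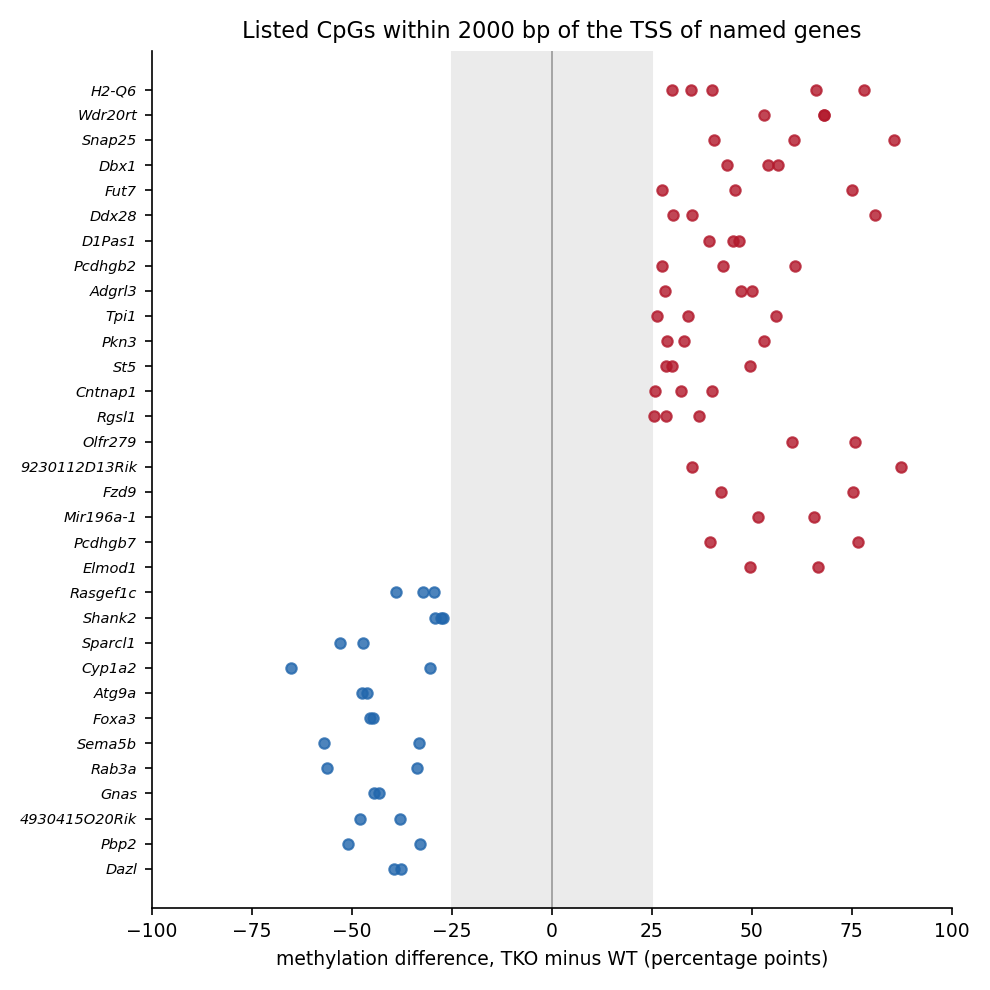
Methylation difference, TKO minus WT, in percentage points (horizontal axis) of each listed CpG within 2000 bp of the TSS of the 20 gained (red) and 12 lost genes (blue) with the most CpGs of a single direction. Points are single CpGs, each with 1 value for all clones, the grey band holds differences too small to be listed, and values within a gene spread widely, as from 40.5 to 85.5 points at Snap25.

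Gene groups were described by the CpGs assigned to their members, beside the 58.6% over all CpGs. Developmental transcription factors had 69.6% of 214 CpGs gained (95% interval 63.0 to 75.7%), and 25 of the 266 genes in the list had a CpG within 2000 bp of the TSS. Within that distance 15 of the 25 had gains alone, against 615 of the 855 genes with a listed CpG there. Near the TSS these included Dbx1, Emx2 (27.7 and 35.7 points), a cortical homeobox gene, Lhx3 (43.5 points), a pituitary and motor neuron factor, Gsx1 (42.9 points) and Foxn4 (41.9 points). A further 9 of the 25 had losses alone there, among them Hoxa10 (-58.8 points), Barhl1 (-47.8 points), Shox2 (-45.5 points), Irx5 (-28.6 and -46.2 points) and Nkx2-2 (-37.1 points). Near its TSS Evx1 had -35.4, 31.5 and -28.0 points.

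The lineage lists were small. Their counts near the TSS stand beside 615 genes with gains alone among all 855 genes with a listed CpG there. Endoderm genes had 8 of 15 CpGs gained, and near the TSS Gata4 had 34.6 points at both CpGs, where Foxa3 and Cyp1a2 were lost. Mesoderm genes had 18 of 28 gained, and near the TSS Runx1 (38.2 points), Myod1 (29.6 points) and Nkx2-5 (27.9 points) had gains and Lmo2 a loss (-26.2 points). Nkx2-5 also had 2 losses (-44.6 and -55.4 points) at 27950 and 27938 bp. Neuroectoderm genes had 16 of 23 gained, and trophoblast genes 10 of 17, with Ascl2 (38.3 points at 49 bp) near its TSS. Germline genes had 16 of 30 gained, and near the TSS 5 genes had gains, D1Pas1 (39.2, 46.8 and 45.4 points), Tdrd6 (48.8 points), Tnp1 (37.2 points), Asz1 (32.9 points) and Sycp3 (31.0 points), and 2 had losses, Dazl and Taf7l (-25.1 points).

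Pluripotency genes had 21 of 31 CpGs gained, all of them over 2000 bp from a TSS, as were all 16 CpGs of the epiblast list. Sox2 had 34.8 and 27.6 points at 13059 and 13066 bp, Socs3, a feedback inhibitor of LIF signalling, 60, 45.3 and 56.3 points at 26067, 9393 and 9325 bp, and Esrrb 26.3, 29.3 and -47.8 points. Klf5 had 1 gain (46.2 points) and 4 losses (-67.4, -52.9, -47.5 and -46.0 points). No CpG near the TSS of a pluripotency gene was listed, which does not show that their methylation was the same. The 2-cell-like list had 1 CpG, near Tcstv3 (-26.4 points). Fibroblast genes, taken as markers of feeder cells, had 11 of 13 CpGs gained and none within 2000 bp of a TSS.

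The methylation machinery list had 16 of 19 CpGs gained (84.2%, 95% interval 60.4 to 96.6%). Besides Tet1 and Tet2 they lay at Kdm2b, the gene of a histone demethylase that binds CpG islands (52.2, 69.4 and 48.7 points in an intron), Gadd45b (41.5, 26.9 and 54.6 points), Sin3a, a corepressor gene (30.2 and 65.0 points), Smug1, a DNA glycosylase gene (31.5 and 41.4 points), and Gadd45g (46.2 and -78.2 points). The de novo methyltransferase genes had CpGs in both directions, with 27.1 and -30.6 points at Dnmt3a and 44.6 and -59.2 points at Dnmt3b.

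Imprinted genes had 16 of 28 CpGs gained. Near the TSS 4 had gains, Ascl2, Kcnq1ot1 (35.0 points), Zrsr1 (36.1 points) and Mest (35.1 points). Another 4 had losses there, Magel2 (-64.6 points), Gnas (-43.2 and -44.4 points), Mcts2 (-43.0 points) and Grb10 (-35.6 points). Among all 855 genes with a listed CpG near the TSS, 615 had gains alone. Synapse genes had 28 of 62 gained (45.2%, 95% interval 32.5 to 58.3%). Ion channel genes had 40 of 75 and signalling ligands and receptors 68 of 139 (48.9%, 95% interval 40.4 to 57.5%). Beyond 2000 bp of a TSS the shares of these lists were 42.6, 51.5 and 47.2%. Near the TSS 6 synapse genes had gains alone and 4 losses alone, against 5 and 2 ion channel genes and 7 and 3 signalling genes. Clustered protocadherins, cell surface identity genes of neurons, had 10 of 12 gained, all in exons within 2000 bp of a TSS, where 73.8% of all listed CpGs were gained, as at Pcdhga11 (86.2 points), Pcdhgb4 (72.0 points) and Pcdhgb7 (39.6 and 76.6 points). Pcdhac2 was lost (-35.5 and -25.8 points). Their exons resemble each other, so reads could be placed on another member.

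Counted at any distance, Wwox, a tumour suppressor gene at a fragile site, had the most CpGs, with 4 gained and 7 lost over introns from 73644 to 576260 bp. Dst, a cytolinker gene, had 4 of 10 gained and Celf4, an RNA-binding protein gene, 7 of 10. All 9 CpGs near 1700017J07Rik were gained (25.3 to 89.6 points), and 8 of 9 at Pitpnc1. At Lhx5, Rnf165, Tmem132b and Rbfox3 7 of 8 were gained each. These numbers were not set against the CpGs that could be measured there.

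By chromosome, the share gained ranged from 52.2% of 272 CpGs on chromosome 14 to 65.5% of 226 on chromosome 19 among the autosomes, and was 47.2% of 53 on the X chromosome (95% interval 33.3 to 61.4%). It was 64.4% of 657 on chromosome 11 (95% interval 60.6 to 68.0%). Per 1000 CpGs of the virtual digest, 8.13 were listed on chromosome 1, 7.36 on chromosome 8 and 3.78 on chromosome 3, and 0.826 on the X chromosome. The digest again counted CpGs inside CCGG sites. The number of CpGs that the authors tested on each chromosome is not known.

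The other 3 lists against WT were read at the CpGs described above. The same 3 WT clones serve all of them, and a CpG missing from a list was either under the thresholds or not measured. DKO samples were named by title, and the genotype field of the first DKO replicate reads Tet2-/-, so DKO values carry that doubt. The run named for Zbtb17 had means over its listed CpGs of 61.5 points in TKO, 61.7 points in DKO (4 CpGs), 49.9 points in Tet2 KO (3 CpGs) and 47.4 points in Tet1 KO cells (1 CpG). At Pitpnc1 the means were 51.7 points in TKO (5 CpGs), 43.2 points in DKO (5 CpGs) and 54.8 points in Tet2 KO cells (4 CpGs). The run near 4930515B02Rik had 41.2 points in TKO (7 CpGs), 43.3 points in Tet2 KO (5 CpGs) and 57.3 points in Tet1 KO cells (5 CpGs). The loss near Zfand2a was -51.7 points in TKO (3 CpGs), -34.9 points in DKO (2 CpGs), -35.0 points in Tet2 KO (2 CpGs) and -36.2 points in Tet1 KO cells (3 CpGs). Gramd4 had 1 CpG with 100 points in TKO, DKO and Tet2 KO cells. The run in Klf3, that in Pard6b and the CpGs of Fzd9, Cntnap1, Tpi1, St5, Elmod1, Adgrl3, Sparcl1, Atg9a and Rasgef1c were in the TKO list alone of these 4.

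Some CpGs had opposite signs. At both Dazl CpGs the difference was -37.7 and -39.5 points in TKO and 62.3 and 60.5 points in Tet2 KO cells, a gap of 100 points at each, which is the whole scale if both values are set against the same WT level. Barhl1 had -47.8 points in TKO and 48.2 points in Tet2 KO cells at 1 CpG, and Shox2 had -45.5 points in TKO and 36.2 points in Tet1 KO cells. With a single value for the 2 TKO clones, a difference between genotypes and one between clones cannot be told apart.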

How the data were processed

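RRBS libraries (Premium RRBS Kit, Diagenode) were made from genomic DNA of undifferentiated ESCs. Samples were grouped by title, since the genotype field of both TKO samples reads DKO and that of the first DKO replicate reads Tet2-/-. Per the labels, the authors trimmed reads with Trim Galore 0.5 and aligned them to mm9 with Bismark 0.19.1. methylKit was used to compare the 2 sets of clones, and HOMER to annotate CpGs past the thresholds. The deposited values are the authors' methylation differences, in percentage points, and distances to the nearest TSS, in bp. They come from columns of the authors' own comparisons, which are the only values of the list, so they are given as the authors' values and were not tested again. Depth per sample is not given, and precision cannot be stated for a single CpG. The gene columns of the DKO list were not in the order of its coordinates, so it was read by position alone.

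All 8001 CpGs were counted with Python 3.11.15, pandas 2.3.3 and SciPy 1.17.1, with no filter of values. CpGs up to 1000 bp apart were merged into regions, and 2000 bp on either side was taken as near a TSS. Counting and merging were checked on simulated data. Sequences were read from NCBIM37, and annotations of printed stretches from GENCODE vM1.

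Named genes were the 20 gained and 12 lost genes with the most CpGs of a single direction near the TSS, up to 4 genes per list, the 8 longest runs in each direction, the 10 genes with the most CpGs, genes with 2 or more CpGs in both directions, the largest and smallest differences, and the Tet genes. Further members of lists, and runs of 4 CpGs, were named after their values were seen. Some genes that the rule would name are not reported here. The members and lists were chosen with earlier results of these data known. The lists were methylation machinery, imprinted, germline, pluripotency, 2-cell-like, epiblast, mesoderm, endoderm, neuroectoderm, trophoblast, fibroblast, developmental transcription factors, protocadherin, synapse, ion channels, and signalling ligands and receptors. Alternatives were other minimum differences, merge distances and windows, leaving out repeats, sex chromosomes or families of near-identical copies, and a 200 bp sequence window.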

Additional observations from a re-analysis of the deposited data

How the results depend on the processing

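Every share of regions kept its side of 50% under all alternatives run, and the medians of gains and losses stayed between their quartiles. The share of regions higher in TKO was 58.5% at a minimum difference of 40 points, 58.6% with each CpG counted separately and 60.2% without repeats. Within 2000 bp of a TSS it was 76.6% at 40 points, 77.2% in a 1000 bp window, 79.2% in a 500 bp window and 79.0% in the promoter-TSS class. Beyond 2000 bp it was 56.2% at 40 points, 56.4% with each CpG counted separately, 57.8% without repeats and 56.04% outside the promoter-TSS class. The other 22 of 33 alternatives to these main values stayed within the range set for them. For shares this was the exact interval of the main value. For medians it was the quartiles of the single CpGs, 30.3 to 48 points at gained and 29.7 to 46.8 points at lost CpGs. Medians over largely the same CpGs could hardly leave these quartiles, so their part of the 22 shows little. By class, L1 elements had 40.3% gained at 40 points. The distance bins without repeats and at 40 points were added after seeing the data, and at 40 points the bin within 500 bp had 84.6%. No paired analysis was possible because the list holds 1 value for all clones, and for the same reason leaving out a clone was not possible. A clone that stands apart could therefore not be seen. The read depth behind each CpG is unknown beyond the minimum of 10 reads, and CpGs that changed by less than 25 points are not in the list.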
